A study of Mus musculus with 12 samples.

Results

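The genes described here are 10 transcriptional regulators grouped around serum response factor: *Srf* itself, the coactivators *Myocd*, *Mkl1* (MRTF-A), and *Mkl2* (MRTF-B), the ternary complex factors *Elk1* and *Elk3*, and *Klf4*, *Mef2c*, *Mef2d*, and *Gata6*. They were chosen by name and not by a rule on their values, though earlier results of these data were known. They make up 10 of the 54532 genes quantified in each library. All 10 passed the filter on low values (at least 0.5 TPM in at least 3 libraries) in both tissues. RNA sequencing covered whole homogenates of colon and urinary bladder from male mice aged 5 to 7 weeks, with 3 control (Ctrl) and 3 knockout (Y/T KO) libraries per tissue. Every mouse carried floxed *Yap1* and *Wwtr1* (TAZ) alleles on a mixed background and received 1 mg tamoxifen per day in 5 injections, and tissue was taken on day 7 after the first. The groups differed in Cre alone: Y/T KO mice were Myh11CreERT2 positive and Ctrl mice were Cre negative. The *Myh11* promoter directs this Cre to smooth muscle, whereas the libraries held the RNA of every cell type in the organ, and the transgene lies on the Y chromosome, so only males could be used. The Ctrl colons were those of mice 788, 786, and 787, and the knockout colons those of mice 759, 783, and 780. The Ctrl bladders were those of mice 784, 785, and 788, and the knockout bladders those of mice 782, 783, and 780, so 3 of the 9 mice gave both organs. Values of single libraries are given in these orders throughout.

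SRF is a MADS-box protein that binds the CArG box, a short AT-rich element in the promoters of smooth muscle genes and of growth factor-inducible genes. Alone it activates transcription poorly, and its partners set the output. Myocardin and the MRTFs drive the contractile genes of smooth muscle, with the MRTFs held in the cytoplasm by monomeric actin, whereas phosphorylated ternary complex factors drive immediate-early genes and compete for the same surface of SRF. In the gut and bladder wall, SRF and myocardin are best known for keeping smooth muscle cells contractile.

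*Srf* lies on chromosome 17 (46548329 to 46556175, minus strand of GRCm38) and is itself known as a target of the factor it encodes. The stretch from 150 to 21 bases before its RefSeq start (chr17:46556183-46556312, minus strand, GRCm38.p6) is shown because *Srf* was the only member whose promoter window held a CArG box. The capitals mark the boxes.

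Srf: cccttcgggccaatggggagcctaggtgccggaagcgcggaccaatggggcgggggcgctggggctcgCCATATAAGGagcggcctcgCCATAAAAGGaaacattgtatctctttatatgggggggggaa

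The 2 boxes start 82 and 62 bases before the start site, 20 bases apart. Windows of 300 bases, 250 before and 50 after each RefSeq start, were searched on both strands for CArG boxes. Only exact matches of 10 bases were counted: CC, then A or T throughout, then GG. Boxes with a mismatch or outside the windows would be missed. The motif occurred in 1.63% of all 32851 windows and for 488 of 27025 genes (1.81%). Of the 10 regulators, 8 had windows in the RefSeq table (13 windows in all), and *Myocd* and *Gata6* had none. Among the 17 smooth muscle genes listed as CArG targets, 14 had windows, and 4 of these held a box: *Myl9*, *Vcl*, *Acta1*, and *Actc1*. Their boxes are shown to compare with those of *Srf*, each with 10 bases on either side.

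Myl9: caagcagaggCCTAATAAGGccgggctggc

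Vcl: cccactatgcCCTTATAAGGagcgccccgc

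Acta1: tgcccgacacCCAAATATGGcttgggaagg

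Actc1: gctaaggcgaCCAAATAAGGcaaggtggca

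In GRCm38.p6 these windows lie at chr2:156775293-156775322 (plus strand), chr14:20929161-20929190 (plus), chr8:123894829-123894858 (minus), and chr2:114052903-114052932 (minus). The letters CATTCC, the core of the element bound by the TEAD partners of YAP and TAZ, or their complement GGAATG occurred in 14.7% of all windows and for 16.6% of genes. They occurred for 2 of the 8 regulators with windows (*Mef2c* and *Mkl2*) and for 8 of the 14 targets, and a CATTCC match can share its last bases with a CArG box. Such matches describe the letters of these windows and do not show binding.

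Depth was similar across libraries, at 2.80 to 3.94 gigabases of aligned sequence. Libraries of the same group correlated at 0.931 to 0.969 over genes at 1 TPM or more in any library. The highest correlation with another group was 0.963. *Yap1* was lower in every Y/T KO bladder library than in any Ctrl library (102 ± 3.64 against 70.5 ± 1.95 TPM, SD, n = 3), with limma adjusted p = 0.0625. In the colon its means were 50.1 ± 4.499 and 44.3 ± 3.41 TPM and the groups overlapped. *Wwtr1* overlapped in both tissues, and its estimates were higher after knockout, not lower. Its log2 fold changes were 0.18 (SE 0.16) in the colon and 0.24 (SE 0.24) in the bladder. How far either gene was deleted in smooth muscle cells was not tested, since whole-organ levels include RNA of all other cells. All 6 smooth muscle markers (*Myh11*, *Cnn1*, *Smtn*, *Des*, *Lmod1*, and *Synpo2*) had lower estimates in Y/T KO in both tissues, and none passed adjustment. Their summed TPM ran from 1655 to 1861 in Ctrl colon and from 1217 to 1454 in Y/T KO colon. Bladder sums were 8211, 9793, and 9238 TPM in Ctrl, with 7930, 5245, and 4620 after knockout. The sum of the Y/T KO bladder of mouse 782 thus came close to the Ctrl sums but was below each of them. The Y/T KO bladders of mice 783 and 780 stood apart in another way. Summed striated muscle markers (*Ckm*, *Myh1*, *Myh2*, *Myh4*, and *Tnnt3*) reached 2623 and 3131 TPM in these libraries, against 497, 364, and 304 TPM in Ctrl and 347 TPM in mouse 782. Bladder results are therefore also given without these 2 libraries, which leaves a lone Y/T KO bladder whose spread is assumed to match that of the Ctrl group. In homogenates, a lower level of a gene can come from fewer cells of a type or from less RNA in each cell, and these cannot be told apart.

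**Figure D1:**
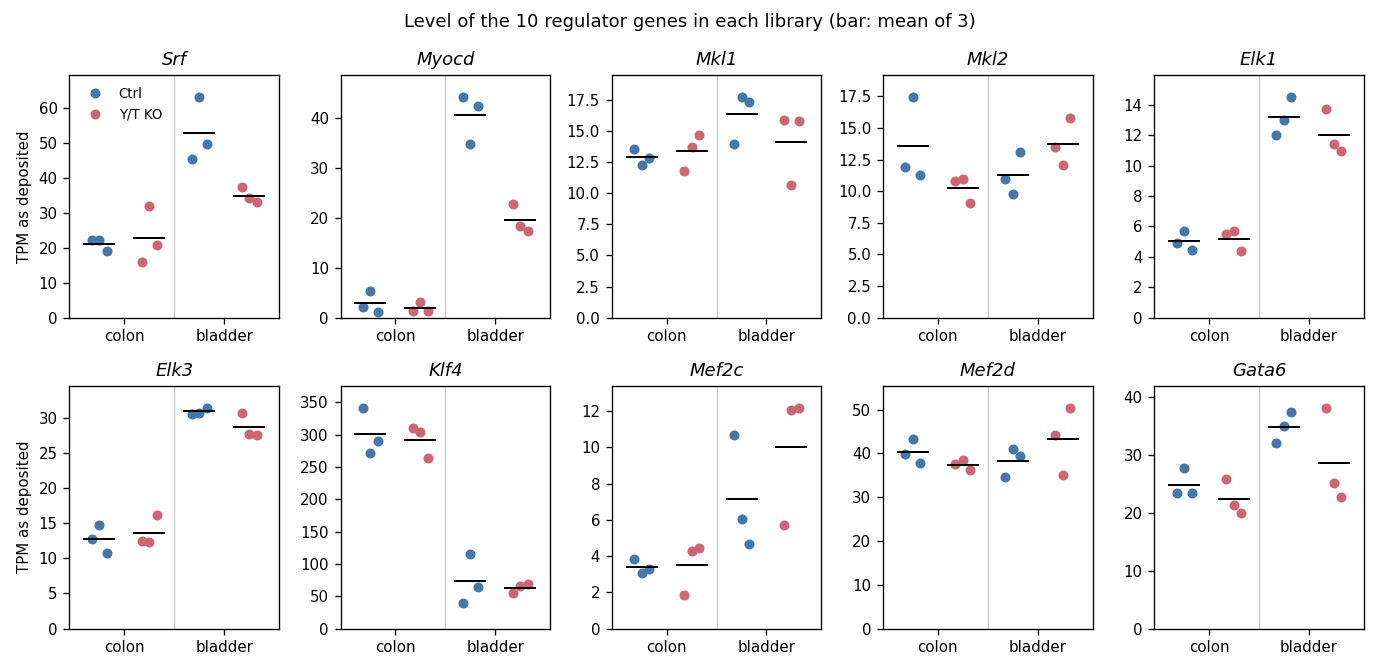
TPM as deposited (vertical axis, from 0) of the 10 regulators in each of the 12 libraries; points are libraries, blue for Ctrl and red for Y/T KO, with colon left and bladder right, and bars are means of 3. *Myocd* stood at 1.11 to 5.29 TPM in all colon libraries and at 17.3 to 44.2 TPM in the bladder, where Y/T KO and Ctrl did not overlap, and *Klf4* was high in the colon.

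The first question was how these regulators differed between Y/T KO and Ctrl mice. In the bladder, *Myocd* and *Srf* had the lowest Y/T KO estimates of the 10, whereas in the colon neither separated the genotypes. None of the 10 passed an adjusted p of 0.05 (limma with Benjamini-Hochberg adjustment) in either tissue, where 0.137% of the 17500 genes tested in the colon and 0.302% of the 18237 tested in the bladder did. At an unadjusted p under 0.05 there were 0 of 10 in the colon (9.73% of all genes, either direction) and 2 of 10 in the bladder, both lower in Y/T KO (8.2% of all genes were lower and 14.8% differed in either direction). After rescaling, genotypes did not overlap for 2 members in the colon, *Mkl2* and *Mef2d*, both lower in Y/T KO (7.87% of all genes), and for 3 in the bladder, *Srf*, *Myocd*, and *Elk3*, all lower (11.4%). For the 10 together, the median log2 fold change was -0.0046 (colon) and -0.12 (bladder), beside 0.0064 and 0.0020 over all genes tested. Fold changes are on the log2(TPM + 0.1) scale, means are of rescaled TPM, and with 3 mice against 3 an exact permutation test cannot go below p = 0.1.

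**Figure D2:**
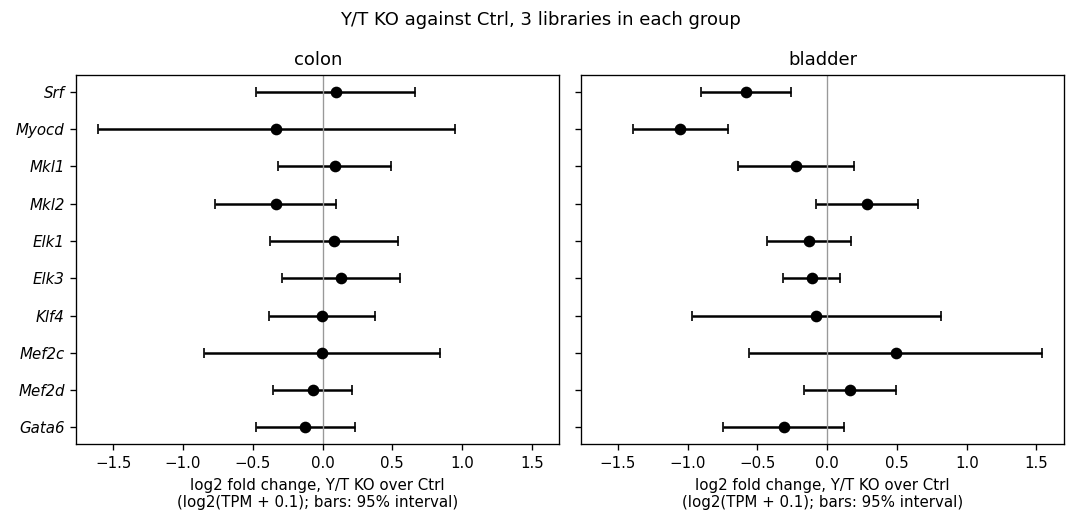
Log2 fold change of Y/T KO over Ctrl (horizontal axis, on log2(TPM + 0.1)) for the 10 regulators in colon (left) and bladder (right); points are limma estimates from 3 libraries per group and bars are 95% intervals. Only the bladder intervals of *Srf* (-0.91 to -0.26) and *Myocd* (-1.39 to -0.71) lie clear of 0, before any adjustment for the number of genes.

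*Srf*, the DNA-binding partner on which the coactivators depend, stood at 45.6, 63.3, and 49.9 TPM in the Ctrl bladders, whereas the Y/T KO bladders held 37.4, 34.4, and 33.3. Every Y/T KO library was below every Ctrl library, and the Ctrl group spread more widely than the Y/T KO group. This was a log2 fold change of -0.58 with an SE of 0.14 (limma adjusted p = 0.159, unadjusted 0.0042). In the colon *Srf* stood at 22.4, 22.4, and 19.0 TPM in Ctrl, whereas Y/T KO gave 16.1, 32.1, and 20.8. The Y/T KO colons held both the lowest and the highest value, and the 95% interval of the log2 fold change ran from -0.48 to 0.67 around an estimate of 0.09. The direction rested on mouse 783: without its colon library the estimate was -0.17. The libraries with the most *Srf* in each tissue were also the highest in *Fos*, an immediate-early target of SRF and the ternary complex factors. *Fos* stood at 212 TPM in the Ctrl bladder of mouse 785, against 12.4 to 84.0 TPM in the other bladder libraries, and at 244 TPM in the Y/T KO colon of mouse 783, against 50.5 to 131 TPM in the other colons. Without the bladder of mouse 785, the *Srf* estimate in the bladder was -0.44 and its unadjusted p 0.0051. The match did not extend to the other libraries. The Y/T KO colon of mouse 759 held 131 TPM of *Fos* but the least *Srf* of the colons. The Ctrl bladder of mouse 784 held the least *Fos*, with more *Srf* than any Y/T KO bladder. *Egr1* and *Junb* were also highest in mouse 785 among bladders. Among colons, *Egr1* was highest in mouse 759 (25.8 TPM, 24.0 in mouse 783) and *Junb* in mouse 780 (38.8 TPM, 37.9 in mouse 783). The bearing of *Fos* levels on the *Srf* values was not tested. Reads of *Srf* could include those of the microRNA gene *Mir6976*, which overlaps it on the same strand.

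*Myocd* (chromosome 11, 65176561 to 65269989) encodes myocardin, the coactivator most restricted to smooth and cardiac muscle. It stood at 44.2, 34.8, and 42.4 TPM in the Ctrl bladders, whereas the Y/T KO bladders held 22.8, 18.3, and 17.3. The genotypes did not overlap, and every Y/T KO library was well below the lowest Ctrl library. Rescaled means were 40.2 ± 5.23 and 19.3 ± 2.35 TPM (SD, n = 3), 0.482 of the Ctrl level on the log2 scale (log2 fold change -1.05, SE 0.14, 95% interval -1.39 to -0.71, limma adjusted p = 0.0573). With all libraries kept, the adjusted p ran from 0.0538 to 0.381 over the alternative settings, highest with all 12 libraries in a single fit, and it passed only at a threshold of 0.1. In the colon *Myocd* was low in every library, at 2.15, 5.29, and 1.11 TPM in Ctrl, with 1.28, 3.20, and 1.41 after knockout. These groups overlapped and the interval was wide, from -1.61 to 0.95. This interval included the bladder estimate. The spread between mice was wide, with the highest Ctrl colon 4.78-fold above the lowest. The coverage of *Myocd* was 1.81 to 9.66 reads per base in the colon against 23.5 to 71.4 in the bladder. Without the Ctrl colon of mouse 786 the colon estimate turned from -0.33 to 0.18.

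Levels in the bladder were also set against the smooth muscle markers, which are themselves among the CArG targets described below. They are therefore no independent measure of muscle content, and its part in the *Myocd* values was not tested. The mean log2 level of the 6 markers was lower in Y/T KO bladder by a difference of -0.52. Relative to that mean, *Myocd* stood at -4.93 to -4.33 log2 units in the Ctrl bladders and at -5.36 to -4.99 in the Y/T KO bladders, a difference of -0.54 between the means with no overlap. *Srf* relative to the same markers overlapped between genotypes in the bladder, with a difference of -0.07. *Mkl2*, *Mef2d*, and *Gata6* relative to the markers separated the genotypes as *Myocd* did, but were higher in Y/T KO (differences of 0.80, 0.68, and 0.20). In mouse 782, *Myocd* was at 22.8 TPM and *Srf* at 37.4 TPM, both below all 3 Ctrl bladders. Its marker sum of 7930 TPM was near the Ctrl sums but also below each of them. The single markers of this library were mixed. *Myh11*, at 2722 TPM as deposited, was the highest of all bladders. After rescaling, *Cnn1* and *Des* were lower in every Y/T KO bladder than in any Ctrl bladder. With the bladder of mouse 782 alone as Y/T KO, the log2 fold change was -0.87 for *Myocd* (SE 0.19) and -0.54 for *Srf* (SE 0.22). In the colon the marker mean differed by -0.50, and *Srf* relative to the markers was higher in every Y/T KO colon (-2.86 to -2.14) than in any Ctrl colon (-3.27 to -3.01). The same held there for *Mkl1*, *Elk1*, *Elk3*, *Klf4*, and *Mef2d*, so it was not particular to *Srf*. A lower marker mean by itself raises the relative level of any gene that did not change. The share of all genes that separated in this way was not computed for either tissue.

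The MRTFs, which bring actin dynamics to SRF target genes, had small differences between genotypes. *Mkl1* (chromosome 15, 81012281 to 81190757) stood at 13.9, 17.7, and 17.3 TPM in the Ctrl bladders, whereas the Y/T KO bladders held 15.9, 10.7, and 15.8. These overlapped, and the log2 fold change was -0.22 (95% interval -0.64 to 0.19). Its colon values lay within 11.8 to 14.7 TPM in all 6 libraries, the narrowest range of the coactivators there, and the interval ran from -0.32 to 0.49. *Mkl2* (chromosome 16, 13256481 to 13417529) stood at 11.9, 17.5, and 11.3 TPM in the Ctrl colons, whereas the Y/T KO colons held 10.8, 10.997, and 9.05. Each Y/T KO colon was below each Ctrl colon, though by a narrow margin (log2 fold change -0.34, SE 0.19, limma adjusted p = 0.608). In the bladder *Mkl2* stood at 10.96, 9.77, and 13.1 TPM in Ctrl, whereas Y/T KO gave 13.5, 12.1, and 15.7, an overlapping pair of groups with an estimate in the other direction (0.29, SE 0.15). Reads of *Mkl1* could be shared with *Gm49522*, which overlaps it on the same strand.

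TPM is scaled for transcript length, so levels of the 3 coactivators can be set beside each other. In the Ctrl bladder *Myocd* made up 63.9%, 55.8%, and 58.2% of the summed TPM of *Myocd*, *Mkl1*, and *Mkl2*. In the Y/T KO bladder it made up 43.7%, 44.6%, and 35.5%. The shares did not overlap, and the summed level was 62.3 to 72.8 TPM in Ctrl and 41.0 to 52.2 TPM in Y/T KO. In the colon *Myocd* was a minor part, 4.39% to 15.1% of a summed 23.8 to 35.0 TPM, and the genotypes overlapped.

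**Figure D3:**
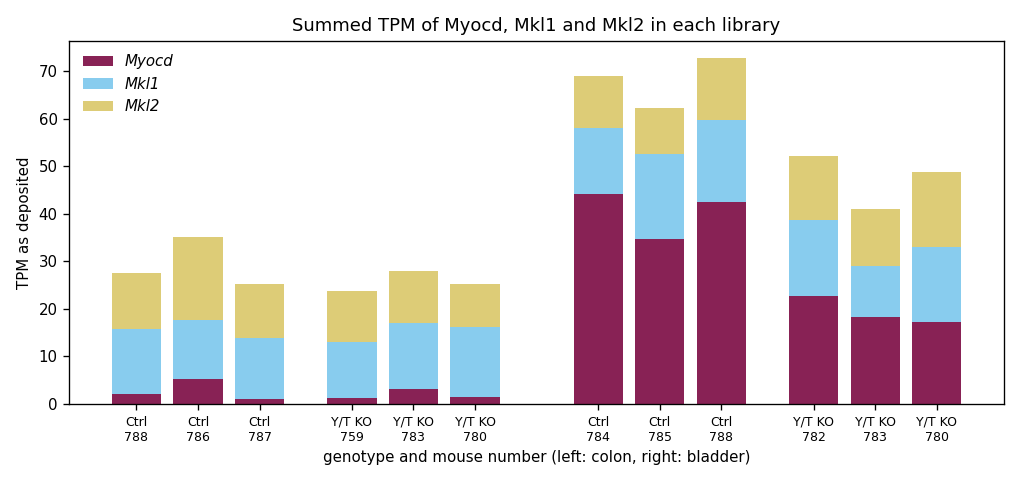
Summed TPM as deposited (vertical axis, from 0) of *Myocd*, *Mkl1*, and *Mkl2* in each library, with genotype and mouse number on the horizontal axis, colon left and bladder right. *Myocd* (bottom segment) was 55.8% to 63.9% of the sum in Ctrl bladder and 35.5% to 44.6% in Y/T KO bladder, and at most 15.1% in any colon library.

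Both ternary complex factors, which bind SRF together with an ETS site after growth factor signals, had near-equal means in the genotypes. *Elk1* (chromosome X, 20933395 to 20950608) stood at 4.92, 5.71, and 4.46 TPM in the Ctrl colons, whereas the Y/T KO colons held 5.48, 5.69, and 4.41, and at 12.02, 13.0, and 14.5 TPM against 13.7, 11.4, and 10.96 TPM in the bladder. The groups overlapped in both tissues, with log2 fold changes of 0.08 and -0.13. *Elk1* shares its strand and part of its span with *Uxt*, so its reads may be split between them. *Elk3* (chromosome 10, 93247414 to 93311135) stood at 30.6, 30.7, and 31.4 TPM in the Ctrl bladders, whereas the Y/T KO bladders held 30.7, 27.7, and 27.6. As deposited these overlapped slightly. After rescaling they did not, at 30.7 ± 0.53 and 28.4 ± 1.04 TPM (SD, n = 3), but the log2 fold change was only -0.11 (SE 0.08, limma adjusted p = 0.581). In the colon *Elk3* ranged from 10.8 to 14.7 TPM in Ctrl and from 12.4 to 16.1 TPM in Y/T KO, with overlap.

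*Klf4* (chromosome 4, 55527143 to 55532466) encodes a zinc finger factor that represses the contractile programme in smooth muscle and is also abundant in the epithelium of the gut. It stood at 342, 272, and 290 TPM in the Ctrl colons, whereas the Y/T KO colons held 310, 304, and 264. The genotypes overlapped fully and the log2 fold change was -0.0023, with a 95% interval of -0.38 to 0.38. In the bladder the values were 39.6, 116, and 64.2 TPM in Ctrl, with 55.0, 66.0, and 69.0 after knockout. All 3 Y/T KO values lay inside the Ctrl range, which ran from the lowest to the highest of the 6. Here too mouse 785 was highest, as it was for *Srf* and *Fos*, and without its library the estimate turned from -0.08 to 0.33. The summed epithelial markers (*Epcam*, *Cdh1*, *Krt8*, *Krt18*, *Krt19*, and *Cldn7*) overlapped between genotypes in the colon, at 6962 to 10175 TPM in Ctrl and 8540 to 9786 TPM in Y/T KO. Markers of mature colon epithelium (*Muc2*, *Car1*, *Krt20*, *Slc26a3*, and *Vil1*) summed to 2553 to 3025 TPM in Ctrl colon and 1451 to 2073 TPM in Y/T KO colon. *Muc2* was below the filter, and none of the 4 tested was called. The part of these markers in the *Klf4* values was not tested.

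*Mef2c* and *Mef2d* encode the other MADS-box family of muscle, which binds an AT-rich site of its own. *Mef2c* (chromosome 13, 83504034 to 83667080) stood at 10.7, 6.02, and 4.66 TPM in the Ctrl bladders, whereas the Y/T KO bladders held 5.72, 12.1, and 12.2. The groups overlapped, with a log2 fold change of 0.49 (SE 0.44, 95% interval -0.56 to 1.54). As deposited, *Mef2c* ranked the 6 bladder libraries in the same order as the striated muscle marker sum, in 6 of 6 libraries. After rescaling, *Mef2c* was higher in mouse 783 (12.5 TPM) than in mouse 780 (12.1 TPM), the reverse of their order in the marker sum. Its highest values were in mice 780 and 783, where *Myh4*, a myosin of fast skeletal muscle, stood at 432 and 409 TPM. *Myh4* was listed at 0 in the Ctrl bladders of mice 785 and 788 and in the Y/T KO bladder of mouse 782, and stood at 46.1 TPM in the Ctrl bladder of mouse 784, which held the highest *Mef2c* of its group. Without the bladders of mice 783 and 780 the estimate turned to -0.27 (SE 0.54). The part of striated muscle RNA in the *Mef2c* values was not tested. In the colon, where *Myh1*, *Myh2*, and *Myh4* were below 0.1 TPM in every library, *Mef2c* was low, at 3.85, 3.09, and 3.28 TPM in Ctrl, with 1.84, 4.28, and 4.47 after knockout.

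*Mef2d* (chromosome 3, 88142372 to 88172086) had similar levels in all groups. It stood at 39.9, 43.3, and 37.8 TPM in the Ctrl colons, whereas the Y/T KO colons held 37.5, 38.6, and 36.2, which overlapped as deposited and not after rescaling (39.5 ± 0.63 against 37.6 ± 0.72 TPM, SD, n = 3). The difference was a log2 fold change of -0.07 (SE 0.12). In the bladder the levels were 34.5, 41.0, and 39.3 in Ctrl, with 44.3, 35.1, and 50.4 after knockout, with overlap and an estimate of 0.16 (SE 0.14).

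*Gata6*, a zinc finger factor of smooth muscle and endoderm that can act with myocardin, stood at 31.96, 35.0, and 37.3 TPM in the Ctrl bladders, whereas the Y/T KO bladders held 38.1, 25.1, and 22.7. The Y/T KO bladder of mouse 782 was the highest of all and the other Y/T KO bladders were the lowest. The estimate was -0.31 (log2, SE 0.18, limma adjusted p = 0.467) and turned to 0.08 without mice 783 and 780. In the colon the levels were 23.3, 27.8, and 23.5 in Ctrl, with 25.8, 21.2, and 19.9 after knockout, with overlap.

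Whether the knockout effect differed between tissues was tested as an interaction over all 12 libraries. None of the 10 passed adjustment, where 0.0491% of the 16298 genes tested did, and 1 of 10 had an unadjusted p under 0.05 (12.6% of all genes). That gene was *Mkl2* (5.61% of all genes had such a p in its direction), whose fold change was lower in the colon than in the bladder by a log2 difference of -0.65 (SE 0.24, limma adjusted p = 0.308, unadjusted 0.0201). Without the bladders of mice 783 and 780 it was -0.57 (limma unadjusted p = 0.0962). *Srf* had a difference of the same size in the other direction (0.65, SE 0.30, limma unadjusted p = 0.0503). Single libraries moved it, to 0.39 without the Y/T KO colon of mouse 783 (limma unadjusted p = 0.110) and to 0.87 without that of mouse 759 (limma unadjusted p = 0.0062). For *Myocd* the difference was 0.70 with a 95% interval of -0.69 to 2.09, so a knockout effect of the same size in both tissues could not be told from a smaller one in the colon. It ran from 0.22 without the Ctrl colon of mouse 787 and 0.30 without the Y/T KO colon of mouse 783 to 1.22 without the Ctrl colon of mouse 786 (limma unadjusted p = 0.0345).

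The next question was how colon and bladder differed in these regulators, which is where the 10 genes varied most. In Ctrl mice, 7 of 10 were called (50.4% of the 19773 genes tested, 25.3% higher in the bladder and 25.1% higher in the colon), with *Srf*, *Myocd*, *Elk1*, and *Elk3* higher in the bladder and *Klf4*, *Mkl2*, and *Mef2d* higher in the colon. In Y/T KO mice, 5 of 10 were called (51.3% of all genes, 25.6% higher in the bladder and 25.8% higher in the colon), with *Myocd*, *Elk1*, *Elk3*, and *Mef2c* higher in the bladder and *Klf4* in the colon. The tissues did not overlap for 8 of 10 in Ctrl (58.6% of all genes) and 5 of 10 in Y/T KO (59.2%), so the shares of regulators were not far from those of all genes. The median log2 difference of the 10, colon minus bladder, was -0.47 in Ctrl and -0.27 in Y/T KO, beside 0.014 and 0.0052 over all genes.

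*Myocd* had the largest difference of the 10 in either genotype. It was 13.8-fold higher in the bladder in Ctrl (log2 difference, colon minus bladder, -3.79, SE 0.45, limma adjusted p = 3.1e-05) and 8.51-fold higher in Y/T KO (-3.09, SE 0.45, limma adjusted p = 0.00015). All 6 bladder libraries were above all 6 colon libraries. The 6 smooth muscle markers were also higher in the bladder, by -2.43 to -1.78 in the same units in Ctrl, a smaller difference than that of *Myocd* for each marker. In Y/T KO the markers ran from -3.08 to -1.04, and the farthest was close to *Myocd*. Relative to the marker mean, *Myocd* stood at -7.26 to -5.07 log2 units in Ctrl colon, below the -4.93 to -4.33 of Ctrl bladder with no overlap. All 17 smooth muscle CArG targets were called higher in the bladder in both genotypes (25.3% of all genes in Ctrl and 25.6% in Y/T KO), with a median of -2.15 in Ctrl and -1.90 in Y/T KO.

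*Srf* was 2.06-fold higher in Ctrl bladder than in Ctrl colon (log2 difference -1.04, SE 0.21, limma adjusted p = 0.0016). In Y/T KO the difference was -0.39 (SE 0.21, adjusted p = 0.147) and the tissues overlapped. Relative to the smooth muscle markers the order turned: *Srf* stood at -3.27 to -3.01 log2 units in Ctrl colon, above the -4.29 to -4.07 of Ctrl bladder. Without the Y/T KO colon of mouse 783, which held the most *Srf*, the Y/T KO difference was -0.65 with an adjusted p of 0.0081.

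*Elk1* and *Elk3* differed between tissues to the same degree. *Elk1* was 2.17-fold higher in the bladder in Ctrl and 1.90-fold in Y/T KO, and *Elk3* was 2.03-fold and 1.74-fold higher. All 4 differences were called, and neither gene overlapped between tissues in either genotype. The ratio of *Elk3* to *Elk1* TPM was accordingly similar everywhere, at 2.17 to 2.60 in 11 of 12 libraries and 3.66 in the Y/T KO colon of mouse 780.

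*Klf4* was 5.39-fold higher in the colon in Ctrl (log2 difference 2.43, SE 0.30, limma adjusted p = 4e-05) and 5.59-fold in Y/T KO (2.48, SE 0.30, limma adjusted p = 3.4e-05). The lowest colon library, at 264 TPM, was above the highest bladder library, at 116 TPM. Of the 6 epithelial markers, 5 were also called higher in the colon and 1 higher in the bladder, in both genotypes. Of all genes, 25.1% in Ctrl and 25.8% in Y/T KO were called higher in the colon. The summed TPM of the 6 markers was 6962 to 10175 in colon libraries and 1990 to 2606 in bladder libraries. The part of epithelial RNA in the *Klf4* difference was not tested.

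The remaining tissue differences were smaller and less stable. *Mkl2* (log2 difference 0.50, SE 0.17) and *Mef2d* (0.34, SE 0.12) were called higher in Ctrl colon with limma adjusted p of 0.0264 and 0.0323. Both calls were lost with TPM as deposited, where the median of all genes moved to -0.24, and the *Mkl2* call was also lost without the Ctrl colon of mouse 786 or the Ctrl bladder of mouse 784 or 785. The *Mef2d* call was lost without any single Ctrl library other than the bladder of mouse 785. *Mef2c* was called higher in the bladder in Y/T KO (-1.23, SE 0.43, limma adjusted p = 0.0318). That call was lost without the colon of mouse 759 or the bladder of mouse 783 or 780, and without both of the latter the difference was -0.47 (adjusted p = 0.560). *Mkl1* overlapped between tissues in both genotypes, with log2 differences of -0.07 and 0.22. *Gata6* had a difference of -0.22 in Ctrl and -0.06 in Y/T KO, and neither was called.

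**Figure D4:**
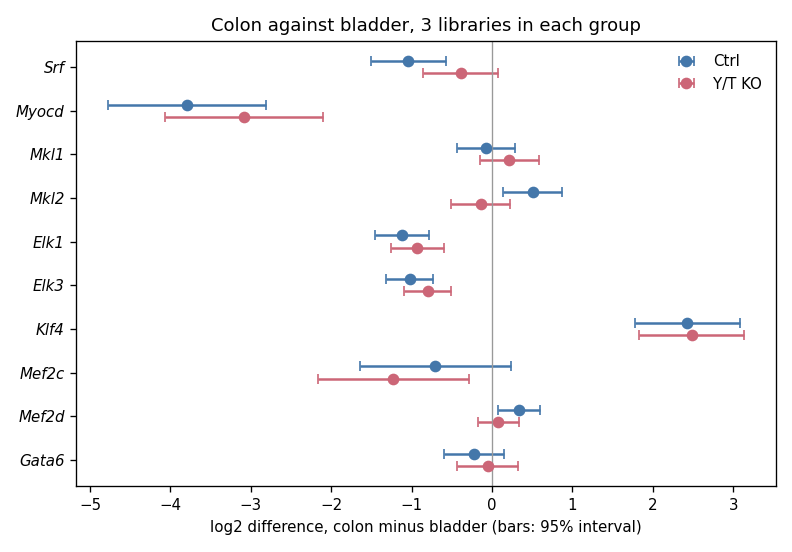
Log2 difference, colon minus bladder (horizontal axis), for the 10 regulators in Ctrl (blue) and Y/T KO (red); points are limma estimates from 3 libraries per tissue and bars are 95% intervals. *Myocd* is farthest left (-3.79 and -3.09) and *Klf4* farthest right (2.43 and 2.48).

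The order of the regulators by level therefore differed between the tissues. In Ctrl colon it ran, by median TPM, *Klf4* (290), *Mef2d* (39.9), *Gata6* (23.5), *Srf* (22.4), *Mkl1* (12.9), *Elk3* (12.8), *Mkl2* (11.9), *Elk1* (4.92), *Mef2c* (3.28), and *Myocd* (2.15). The neighbours *Mkl1* and *Elk3*, *Elk3* and *Mkl2*, and *Mef2c* and *Myocd* overlapped, and the others did not. In Ctrl bladder it ran *Klf4* (64.2), *Srf* (49.9), *Myocd* (42.4), *Mef2d* (39.3), *Gata6* (35.0), *Elk3* (30.7), *Mkl1* (17.3), *Elk1* (13.0), *Mkl2* (10.96), and *Mef2c* (6.02). There *Srf* and *Myocd*, *Gata6* and *Elk3*, and *Elk3* and *Mkl1* did not overlap, and all other neighbours did. *Myocd* thus held the last place in the colon and the third in the bladder, and in Y/T KO bladder it held the sixth, at a median of 18.3 TPM, after *Gata6* and ahead of *Mkl1*.

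Genes whose pattern over the 12 libraries was most like that of a regulator were found by the mean absolute difference of log2 TPM after centring each gene at its own mean, among 15598 genes. For *Srf* these were *Prmt2* (0.110), *Myo1c* (0.124), and *Tnrc18* (0.125), beside 0.548 for the median gene. For *Myocd* they were *Adamtsl1* (0.404), *Plxna4* (0.406), and *Gm17029* (0.414), beside 1.75. *Mkl1* was closest to *Kdm6b* (0.0742), *Fam104a* (0.0793), and *Tut1* (0.0811), beside 0.403, and *Klf4* to *Trib1* (0.169), *Nuak2* (0.193), and *Fbp2* (0.197), beside 1.23. Among the regulators, *Elk3* was the nearest to *Srf* (0.263, rank 487), and *Myocd* was far from it (1.36, rank 14486). The measure also reflects how widely a gene varied: the mean absolute deviation was 1.72 for *Myocd* and 0.396 for *Srf*. A large value therefore does not show an opposite direction.

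The genes around these regulators were described as 3 lists, none of which had a called gene in either tissue. Of the other co-regulators of SRF, 22 of 24 were tested in the colon, with 8 estimates higher and 14 lower in Y/T KO (median -0.06), and 23 in the bladder, with 13 higher and 10 lower (median 0.06, where 50.2% of all genes had higher estimates). Without the bladders of mice 783 and 780, 16 were higher and 7 lower (median 0.16). The largest colon differences were in *Tgfb1i1* (Hic-5, log2 fold change -0.73), *Klf15* (0.51), and *Fhl2* (0.39), and the largest bladder differences in *Klf15* (1.55), *Hdac9* (1.34), and *Gata4* (-0.74). *Klf15* was higher in all 3 Y/T KO bladders (17.0, 16.8, and 23.8 TPM) than in any Ctrl bladder (12.5, 4.29, and 4.88 TPM), also in mouse 782. *Hdac9*, a histone deacetylase that binds MEF2 proteins, stood at 14.01 and 14.7 TPM in mice 783 and 780, where striated muscle markers were high, and at 5.62 TPM in mouse 782, inside the Ctrl range of 1.58 to 10.2 TPM. *Mef2b* was below the filter in both tissues and *Gata4* in the colon.

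Smooth muscle genes with CArG boxes, the targets of myocardin and the MRTFs, had lower estimates for 16 of 17 in each tissue (49.1% of all genes in the colon and 49.8% in the bladder). Colon and bladder medians were -0.42 and -0.47, and 10 and 8 of the 17 had an unadjusted p under 0.05, all lower (4.59% and 8.2% of all genes). The exception was *Acta1*, skeletal muscle actin, in both tissues (0.07 and 0.41). The lowest estimates were in *Myh11* (-0.98), *Acta2* (-0.88), and *Synpo2* (-0.85) in the colon and in *Actg2* (-1.16), *Cald1* (-1.13), and *Des* (-1.02) in the bladder. These genes include the smooth muscle markers, and several were known from earlier results of these data, so the count is not independent evidence. In the bladder the number of lower estimates rested on mice 783 and 780: without them 9 of 17 were lower and 8 higher. The median moved less, from -0.47 to -0.40. For the genes whose CArG windows are printed above, *Myl9* stood at -0.58 and -0.28, *Vcl* at -0.56 and -0.73, and *Actc1* at -0.12 and -0.24 in colon and bladder.

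Targets of SRF with ternary complex factors, mostly immediate-early genes, had estimates of largely opposite sign in the tissues, with no interaction called. They were measured in the same libraries and are no replicates of each other. In the colon 8 of 9 tested had higher estimates (50.8% of all genes), with a median of 1.00 and 5 at an unadjusted p under 0.05 (5.14% of all genes). In the bladder 7 of 9 had lower estimates (49.8% of all genes), with a median of -0.72 and 2 at an unadjusted p under 0.05 (8.2%). Without the bladders of mice 783 and 780, 9 of 9 were lower, with a median of -1.26 (0.0032 over all genes tested). Results in this setting rest on the lone Y/T KO bladder of mouse 782. The share of all genes in each direction was not computed for it. The interaction was not called for any of the 9, and 3 had an unadjusted p under 0.05 (7.03% of all genes in that direction). The median interaction was 1.65 (-0.017 over all genes tested). Without the bladders of mice 783 and 780 it was 2.41 (-0.010 over all genes tested), and 9 of 9 were higher in the colon. *Fos* (1.26), *Arc* (1.21), and *Fosb* (1.17) were highest in the colon and *Junb* (-1.82), *Arc* (-1.23), and *Fos* (-1.05) lowest in the bladder. Spread within groups was wide: *Fos* ran from 12.4 to 212 TPM in the 3 Ctrl bladders. *Egr2* was listed at 0 in all 12 libraries.

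**Figure D5:**
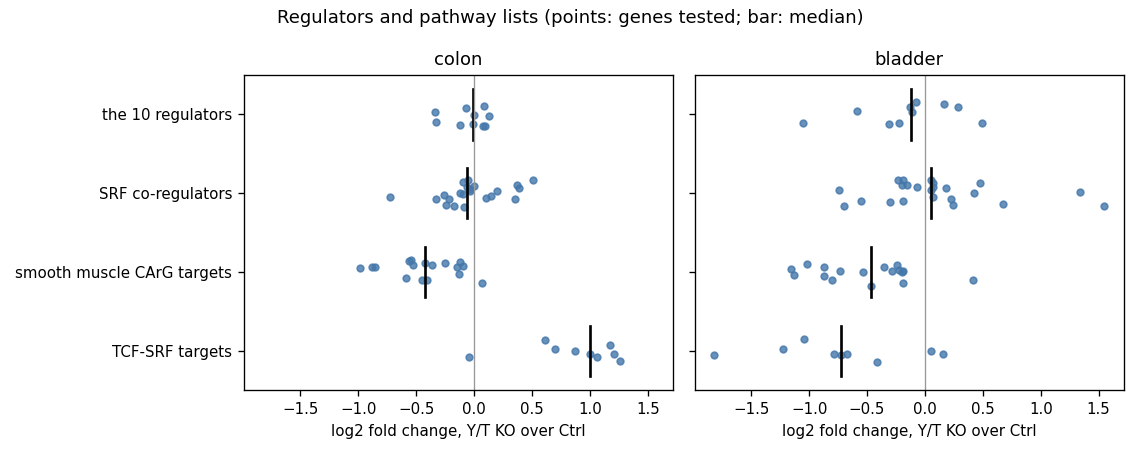
Log2 fold change of Y/T KO over Ctrl (horizontal axis) for the tested genes of the 10 regulators and of 3 lists around them, colon left and bladder right; points are genes, spread vertically for legibility, and bars are list medians. Of the 17 CArG targets 16 lie left of 0 in each tissue (medians -0.42 and -0.47), and of the 9 TCF-SRF targets 8 lie right of 0 in the colon (median 1.00) and 7 left of 0 in the bladder (median -0.72).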

How the data were processed

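Stranded mRNA libraries were made from whole organs. Per the submitters' processing notes, bcl2fastq, FastQC, HISAT2, StringTie, and DESeq2 were used with GRCm38; their versions are not given in the sources used here, nor were the counts behind DESeq2 used. The authors deposited for each library TPM and FPKM (both scaled for transcript length and library) and coverage, the mean reads per base. TPM holds no counts, so errors rest on the spread between mice. Aligned bases were taken from the modal coverage-to-FPKM ratio of each library.

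TPM was summed by gene ID and rescaled by size factors (median of ratios). A gene entered a fit at 0.5 TPM or more in 3 or more of its libraries and was tested on log2(TPM + 0.1) with limma 3.58.1 in R 4.3.3 (trend and robust options), per tissue for genotype and over all 12 libraries for tissue and interaction, and called at a Benjamini-Hochberg adjusted p under 0.05. The fit was also run on simulated data with independent normal noise, which holds no outlying libraries. No result given here rests on that run. The gene coordinates of 98.3% of genes equalled those of GENCODE. Figures were drawn with Python 3.11.15 and matplotlib 3.10.9.

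The members and lists were chosen with earlier results of these data known. Named were the members, the 3 genes of each list with the largest absolute fold change per tissue, the 3 genes most like 4 members, and genes printed with a value that bears on a member. Mice 788, 783, and 780 gave both tissues, so their numbers pair libraries (correlations of deviations -0.0050, 0.0667, and 0.0423); the mouse was added as a block (limma's duplicateCorrelation) as an alternative. Other alternatives were pseudocounts of 0.5 and 1 TPM, no filter, a mean TPM of at least 1, TPM and FPKM as deposited, no trend and robust options, an adjusted p of 0.1, all 12 libraries in a single fit, and each library left out. Leaving out the bladders of mice 783 and 780 together was added after seeing the data. A further list of pathway genes is not reported here.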

Additional observations from a re-analysis of the deposited data

How the results depend on the processing

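Of 840 values of single regulators under the alternatives, 788 kept their direction and side of the threshold, 31 changed sign, 17 lost a call, and 4 gained it. The number of regulators called was 1 (*Myocd*) in the bladder comparison of genotypes at an adjusted p of 0.1 and 0 under its other alternatives. It stayed at 0 in the colon and for the interaction, and ran from 5 to 7 for colon against bladder in Ctrl and from 4 to 6 in Y/T KO. With the mouse as a block, the counts were 0 for the interaction, 7 in Ctrl, and 5 in Y/T KO, and this replicate block changed no call of a regulator.

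Sign changes concerned estimates near 0 or genes named above as resting on a library, and the cause was not tested. In the colon, *Mef2c* turned to 0.0042 and 0.012 with pseudocounts of 0.5 and 1 TPM and to 0.028 with FPKM as deposited, and *Klf4* to 0.031 with FPKM. With TPM as deposited the Y/T KO tissue difference turned to -0.057 for *Mkl1* and -0.19 for *Mef2d*, and with FPKM to -0.0055 for *Mef2d*. TPM as deposited also shifted the median of all genes to -0.24 in Ctrl and -0.26 in Y/T KO, added calls of *Gata6* in Ctrl (adjusted p = 0.0497) and *Srf* in Y/T KO (0.0240), and removed those of *Mkl2* and *Mef2d* in Ctrl. FPKM as deposited removed the same pair. Without the bladders of mice 783 and 780, the genotype estimate turned to 0.011 for *Elk1*, -0.27 for *Mef2c*, and 0.085 for *Gata6*, and the interaction to 0.25 for *Mef2c* and -0.23 for *Gata6*.

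With each library left out in turn, colon fold changes ran from -0.17 to 0.32 for *Srf*, -0.80 to 0.18 for *Myocd*, -0.0085 to 0.18 for *Mkl1*, -0.0032 to 0.20 for *Elk3*, -0.14 to 0.11 for *Klf4*, and -0.23 to 0.40 for *Mef2c*. *Klf4* ran from -0.43 to 0.33 in the bladder and from -0.34 to 0.41 for the interaction. Tissue differences ran from -0.16 to 0.014 for *Mkl1* in Ctrl, and from -0.032 to 0.19 for *Mef2d* and -0.21 to 0.14 for *Gata6* in Y/T KO. The bladder estimate of *Myocd* ran from -1.15 to -0.97.

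Limits are the 3 mice per group, TPM without counts, the 2 bladder libraries with striated muscle markers, and whole-organ RNA, in which the cell source of *Klf4*, *Mef2c*, or *Srf* was not measured.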
